A study of Saccharomyces cerevisiae with 6 samples.

Results

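Some probe sets of an expression array are assigned to the transcripts of more than 1 gene, and their signal can hold whatever those genes contribute. How well each named gene is read was not tested. The 82 probe sets described here are the non-control probe sets to which the authors' fold change table gives several gene names (79), or to which only their list of changed genes does (3). They are 82 of the 5716 non-control probe sets on the array, and between them they name 175 genes in 76 different combinations. Of the 82, 61 name 2 genes and 21 name 3 or more, up to 8. The array maker's suffix for a probe set that reads several transcripts, _s_at, is carried by 74, and 4 carry _x_at, the suffix for probes that also match unrelated sequence. The other 4, for CAD1/DYN2, POR1/POR2, HXT11/HXT12 and FDH1/FDH2, carry plain _at, which marks a probe set meant for a single transcript, so their shared names rest on the authors' table alone.

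The arrays compared yeast grown with and without myriocin, a fungal metabolite that blocks the enzyme with which the making of sphingolipids begins, serine palmitoyltransferase. All 6 cultures were wild-type cells of the laboratory strain DBY746 in SDC medium of pH 6 at 30 °C, taken at an A600 of 2 after growth from 0.002. The 3 Myriocin cultures received 300 ng/ml of the drug, and the 3 No-myriocin cultures received the vehicle, so that both groups grew in 0.3% ethanol. Total RNA from each culture was turned into biotinylated cRNA and read on 1 single-colour array, and the values are the authors' log2 signals. The cultures are biological replicates per the design text.

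Budding yeast carries near-identical genes of more than one kind. Many ribosomal protein, histone and translation factor genes persist as pairs in the interior of the chromosomes, left from an ancient duplication of the whole genome, and they are among the most highly expressed genes of growing cells. Other families sit in the regions next to the telomeres, where blocks of genes have been copied from end to end; these serve sugar uptake, vitamin synthesis, the cell surface and stress, and many are known for low expression on glucose. A shared probe set reports such a family as one quantity: it cannot say which copy changed, and in RNA from whole cultures more RNA per cell in all cells cannot be told apart from a response of some cells.

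Across all 82 shared probe sets, 20 were called higher and 19 lower with myriocin, and 43 were not called, where a call is an adjusted p under 0.05 in limma's test over the 5716 probe sets. The background is high: of all non-control probe sets 54.3% were called, 25.8% in the higher direction and 28.5% in the lower. The signals of the 3 Myriocin arrays did not overlap those of the 3 No-myriocin arrays for 62 of the 82, beside 66.5% of all non-control probe sets. The median log2 difference, Myriocin minus No-myriocin, was -0.12 for the shared probe sets and -0.03 for all. At least 2-fold changes with a call numbered 7 higher and 5 lower, where 9.13% and 7.45% of all probe sets passed. The 21 probe sets that name 3 or more genes held 11 higher and 5 lower calls, and the 61 that name 2 held 9 higher and 14 lower. All these counts, and those below, include the 3 probe sets whose several names come only from the list of changed genes. That list was drawn from these same arrays, so their calls, at 2.94, -1.56 and -1.17, follow from how they were chosen. For them the shares of all probe sets are no fair background.

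Controls of the array moved with the treatment as well, and this touches every small difference reported here. All 26 hybridisation controls above background, RNAs of bacteria and phage added to the labelled samples, were lower on the Myriocin arrays, by a median of 0.25 (log2 difference -0.25, from -0.96 to -0.04), and 10 of them were called. Of 17 probe sets for ribosomal RNA, 16 were called lower, with a median log2 difference of -1.61. Scaling the arrays to the hybridisation controls adds 0.315 to every log2 difference. All 20 higher calls held under that scaling and 3 were added, whereas 5 of the 19 lower calls were left, where 51.6% of all non-control probe sets were called, 39.8% in the higher direction and 11.8% in the lower. The part of the labelled RNA pool in the results was not tested. A signal is called at background here when it lies at or under 2.07, the highest log2 value of the 50 negative controls, and 3 shared probe sets were at background on every array: HXT13/HXT17 and HXT15/HXT16, hexose transporter genes, and VBA3/VBA5, for vacuolar permeases of basic amino acids.

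The largest increase was that of ERR1/ERR2/ERR3, genes near chromosome ends whose products resemble enolase, the glycolytic enzyme that makes phosphoenolpyruvate. The Myriocin arrays read 8.70, 7.64 and 9.03 log2 units, against 2.60, 2.64 and 2.64 on the No-myriocin arrays. The No-myriocin cultures thus lay just above background and the Myriocin cultures far above it, with no overlap. The log2 difference was 5.83 (SE 0.34, limma adjusted p = 0.000164), a 56.8-fold increase. It lay between 5.54 and 6.24 when any 1 array was left out. The main enolase genes ENO1 and ENO2, each with a probe set of its own, had log2 differences of 0.17 and -0.12 and were not called (limma adjusted p = 0.0802 and 0.174); with hybridisation-control scaling ENO1 was called higher and the sign of ENO2 turned, to 0.20.

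The next was HSP32/HSP33/SNO4, relatives of HSP31, a stress-induced protein of the DJ-1 superfamily that detoxifies methylglyoxal. Signals were 8.57, 7.89 and 8.82 with myriocin, against 3.84, 3.43 and 4.07 without it. The 3 Myriocin arrays all lay above the 3 No-myriocin arrays, and the log2 difference of 4.64 (SE 0.28, limma adjusted p = 0.000167) is a 25-fold increase. HSP31 itself, which has its own probe set, was called higher too, at a log2 difference of 2.82 (SE 0.20, limma adjusted p = 0.000263).

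PAU21/PAU22, seripauperins of the cell wall mannoprotein type, had the largest increase among the probe sets that name 2 genes. They read 7.44, 5.91 and 6.75 with myriocin, against 3.93, 3.77 and 3.82 without. The groups were apart, although the Myriocin arrays spread over more than 1 log2 unit, and the log2 difference was 2.86 (SE 0.36, limma adjusted p = 0.00137).

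In the RefSeq gene table of the reference strain (assembly R64), genes of these 3 families lie side by side. PAU19, ERR3 and SNO4 are genes 1, 2 and 3 from one chromosome end. PAU22, ERR2 and HSP32 are genes 2, 3 and 4 from another, and PAU21, ERR1 and HSP33 are genes 3, 4 and 5 from yet another. The gene order was not checked in DBY746. In that order the 3 shared probe sets name genes of 1 repeated block, so they are not independent of each other. FDH1/FDH2, formate dehydrogenase genes, had signals of 2.37, 1.84 and 1.65 with myriocin and 1.51, 1.53 and 1.55 without. These values lay at background on 2 of 3 Myriocin arrays and on all No-myriocin arrays, and the difference of 0.42 was not called (limma adjusted p = 0.0967); it was called with hybridisation-control scaling (0.73) and without Myriocin replicate 3 (0.57).

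The shared probe sets of the seripauperin family did not move together. PAU genes encode small serine-poor mannoproteins of the cell surface, and many are known for rising in fermentation and at low oxygen. Of the family's 6 shared probe sets, 2 were called higher, 3 lower and 1 not called. The 2 higher ones carry the suffix _s_at, and the lower and uncalled ones carry _x_at. Among these 6, a difference between genes thus cannot be told apart from one between kinds of probe set. Beside PAU21/PAU22, the higher one was PAU15/PAU16/PAU19/PAU21/PAU22/PAU3, which read 3.34, 3.20 and 3.36 with myriocin, against 2.88, 2.91 and 2.64 without. These low signals did not overlap, and the log2 difference was 0.49 (SE 0.10, limma adjusted p = 0.00742), a call lost when the arrays were quantile-normalised again (0.28, limma adjusted p = 0.127). Both of the higher probe sets name PAU21 and PAU22.

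The lower ones were PAU20/PAU4, PAU18/PAU6 and PAU1/PAU14. PAU20/PAU4 read 12.17, 12.28 and 11.98 with myriocin, against 12.86, 12.61 and 12.57 without, a log2 difference of -0.54 (SE 0.12, limma adjusted p = 0.0102). PAU18/PAU6 read 11.96, 12.18 and 11.82 with myriocin, against 12.80, 12.41 and 12.45 without, a log2 difference of -0.57 (SE 0.14, limma adjusted p = 0.0175). PAU1/PAU14 read 10.82, 11.02 and 10.53 with myriocin, against 11.60, 11.47 and 11.20 without, a log2 difference of -0.63 (SE 0.16, limma adjusted p = 0.0173). All 3 pairs were lower on every Myriocin array than on any No-myriocin array, but with hybridisation-control scaling their differences shrank to -0.22, -0.25 and -0.32 and none was called. The call of PAU18/PAU6 was lost without Myriocin replicate 1 (adjusted p = 0.0515 in limma) and without Myriocin replicate 3 (0.0566), and that of PAU1/PAU14 without No-myriocin replicate 2 (0.0574).

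PAU10/PAU11/PAU12/PAU13/PAU8/PAU9 read 10.92, 10.72 and 10.80 with myriocin and 10.95, 11.07 and 10.68 without. These arrays overlapped, and the difference of -0.08, or 0.23 with hybridisation-control scaling, was not called (limma adjusted p = 0.586). Of the 10 probe sets that name a single PAU gene, 7 were called higher and 0 lower at adjusted p under 0.05 in limma, from 0.69 for one of PAU17 to 3.0 for PAU2 (SE 0.16); the lowest was PAU8 at -0.19, which turned to 0.12 with hybridisation-control scaling. PAU5, read by 2 probe sets of its own, had log2 differences of 2.63 (_x_at) and 2.35 (_at). The single-gene _x_at probe sets of PAU2, PAU5, PAU7, PAU17 and PAU23 were called higher, and those of PAU8 and PAU24 were not called.

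Thiamine and pyridoxine genes near chromosome ends formed another repeated group. THI5, THI11, THI12 and THI13 encode the enzyme that makes the pyrimidine part of thiamine, and SNZ2/SNZ3 and SNO2/SNO3 encode the paired subunits of an enzyme of vitamin B6 synthesis. THI11/THI12/THI13/THI5 read 12.12, 12.22 and 12.28 with myriocin, against 10.72, 10.77 and 11.08 without. All Myriocin arrays were more than 1 log2 unit above all No-myriocin arrays, and the log2 difference was 1.35 (SE 0.11, limma adjusted p = 0.000401), a 2.55-fold increase. SNZ2/SNZ3 read 12.11, 12.15 and 12.18 with myriocin, against 11.25, 11.24 and 11.49 without, again with no overlap (log2 difference 0.82, SE 0.09, limma adjusted p = 0.000862).

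SNO2/SNO3, the glutaminase subunit genes that lie next to SNZ2 and SNZ3, did not share this. They read 11.13, 10.92 and 10.98 with myriocin and 10.97, 10.91 and 11.27 without. The groups overlapped, and the difference was -0.04 (SE 0.12, limma adjusted p = 0.80), or 0.28 with hybridisation-control scaling. In the reference order SNO2, SNZ2 and THI12 are genes 4, 5 and 6 from an end, and SNO3, SNZ3 and THI5 are genes 8, 9 and 10 from another, so the called and the uncalled probe sets read adjacent genes at both ends.

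Single-gene probe sets of the thiamine list split both ways: of 15, 5 were called higher and 4 lower. The relative SNZ1 had a log2 difference of 3.99 (SE 0.25, limma adjusted p = 0.000174), THI21, a kinase of the pyrimidine branch, one of 3.0, and THI4, which makes the thiazole part, one of 2.67. SNO1, the partner of SNZ1, was at background in both groups. PHO3, the acid phosphatase repressed by thiamine, fell by 1.97 on the log2 scale (SE 0.24, limma adjusted p = 0.00127), and THI80, which makes thiamine pyrophosphate, by 1.70.

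MAL12/MAL32, the maltases of the maltose loci, read 9.97, 9.63 and 9.94 with myriocin, against 8.15, 6.69 and 6.58 without. No-myriocin replicate 1 stood above the other No-myriocin arrays yet below every Myriocin array. The log2 difference was 2.71 (SE 0.42, limma adjusted p = 0.00279), a 6.53-fold increase, and 3.21 without that array. The maltose permease genes MAL11 and MAL31, each with its own probe set, were called higher at 2.48 and 2.36, and IMA5, an isomaltase, at 1.88; in all 3 of 7 single-gene probe sets of this list were called higher and 1 lower.

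The other 2 shared probe sets of the alpha-glucoside genes were not called. MPH2/MPH3, alpha-glucoside permeases, had signals of 2.14, 2.15 and 2.43 with myriocin and 2.69, 2.43 and 2.56 without, near background and overlapping at 2.43 to the second decimal (log2 difference -0.32, limma adjusted p = 0.0557). This value passed without Myriocin replicate 3 (-0.41, adjusted p = 0.0250 in limma) and with an intensity trend and robust variance (limma adjusted p = 0.0411). It all but vanished with hybridisation-control scaling (-0.0019). IMA2/IMA3/IMA4, isomaltases, read 8.80, 8.58 and 8.44 with myriocin and 9.27, 8.76 and 8.96 without, overlapping at 8.76 to 8.80, a log2 difference of -0.39 (limma adjusted p = 0.0816). With the replicate number as a block it passed (limma adjusted p = 0.0341), as it did with quantile normalisation (-0.49, limma adjusted p = 0.0330).

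Other families share pairs of ends with these. COS7, MPH2, SOR2, HXT15, THI13 and AAD4 are genes 1 to 6 from one end, and COS5, MPH3, SOR1, HXT16 and THI11 are genes 1 to 5 from another. Along that block the shared log2 differences were 0.53 for COS5/COS7, -0.32 for MPH2/MPH3, -0.40 for SOR1/SOR2, -0.01 for HXT15/HXT16 at background, and 1.35 for the THI5 group. Shared probe sets that name neighbouring genes of 1 block thus carried calls in both directions in the main fit. The probe set of the THI5 group also names genes at other ends, so its change cannot be placed in this block. SOR1/SOR2, sorbitol dehydrogenases, read 11.73, 11.62 and 11.58 with myriocin, against 12.07, 12.11 and 11.96 without (SE 0.08, limma adjusted p = 0.00663), and lost the call with hybridisation-control scaling (-0.08). In the other pair of ends PAU1, VTH2, IMA4 and HXT9 are genes 2 to 5, and PAU14, VTH1, IMA3 and HXT12 are genes 2, 5, 6 and 8.

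Counting genes from the end in that table, 34 shared probe sets name only genes among the outermost 10 of a chromosome arm, a limit chosen after the values were seen; for 2 of them, IMD1/IMD2 and AAD16/AAD4, 1 named gene has no place in the table and the other decides. Of these, 16 (47.1%) were called higher and 9 (26.5%) lower, with a median log2 difference of 0.13. Without the YRF1 probe sets, 13 of 27 (48.1%) were called higher and 7 (25.9%) lower, with a median of 0.27. Of the 40 that name no such gene, 3 were called higher and 8 lower, with a median of -0.14. These 40 include all 23 ribosomal protein pairs, which held 0 higher and 4 lower calls, also with a median of -0.14. Position is thus mixed with that family in this group. The remaining 8 shared probe sets name genes of both kinds and held 1 higher and 2 lower calls. Among probe sets that name a single gene the 203 within that limit had 22.2% called higher and 27.1% lower, and the other 5339 had 26.4% and 29.1%. These shares are a description, since probe sets of 1 repeated block are not independent of each other, and the differences between them were not tested.

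VTH1/VTH2, predicted membrane receptors that resemble the vacuolar sorting receptor Vps10, read 9.67, 9.34 and 9.17 with myriocin, against 10.93, 10.68 and 10.68 without. Every Myriocin array was lower by at least 1 log2 unit than every No-myriocin array, and the log2 difference was -1.37 (SE 0.15, limma adjusted p = 0.000848). At those 2 ends, PAU1/PAU14 was called lower at -0.63, as given above, IMA2/IMA3/IMA4 at -0.39 and HXT11/HXT12 at -0.38 (limma adjusted p = 0.440) were not called, and HXT9, beside IMA4, was called lower by its own probe set at -2.07. HXT11/HXT12 read 10.29, 9.70 and 8.67 with myriocin and 10.06, 9.83 and 9.92 without, so the Myriocin arrays spread on both sides of the No-myriocin arrays, and the difference was 0.06 without Myriocin replicate 3.

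The YRF1 genes lie in the Y' repeats at the very ends of chromosomes and encode a helicase-like protein that is known for rising in survivors without telomerase. Of the 7 shared probe sets that name 7 or 8 of the YRF1 copies, 3 were called higher, 2 lower and 2 not called, and no single-gene probe set reads this family. The platform annotation assigns each of the 7 to a single reading frame within a Y' element, and those frames are used here to tell them apart. The frame YBL112C read 7.95, 8.46 and 8.31 with myriocin, against 7.05, 7.59 and 6.65 without (log2 difference 1.14, SE 0.26, limma adjusted p = 0.0111). The frame YEL076C read 5.32, 6.06 and 5.2 with myriocin, against 6.90, 7.01 and 7.60 without (log2 difference -1.64, SE 0.28, limma adjusted p = 0.00422). Both sets of arrays were apart, in opposite directions, although the authors' names for these 2 probe sets are the same 8 genes.

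The other 5 lay between. YBL113C, the brightest, read 14.40, 14.22 and 14.30 with myriocin, against 13.80, 13.90 and 13.91 without (log2 difference 0.44, SE 0.08, limma adjusted p = 0.00450). YBL111C read 13.54, 13.66 and 13.67 with myriocin, against 13.21, 13.38 and 13.36 without (0.31, SE 0.08, limma adjusted p = 0.0193), and YFL065C read 10.52, 10.87 and 10.90 with myriocin, against 11.19, 11.39 and 11.79 without (-0.69, SE 0.18, limma adjusted p = 0.0209). The call of YBL111C was lost without Myriocin replicate 2 (adjusted p = 0.0566 in limma), Myriocin replicate 3 (0.0556) or No-myriocin replicate 1 (0.0578). That of YFL065C was lost without Myriocin replicate 1 (0.0597), without No-myriocin replicate 2 (0.0513) and with hybridisation-control scaling (-0.37).

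YFL064C read 3.42, 4.47 and 4.37 with myriocin and 4.53, 4.65 and 5.34 without. Its groups were apart by a narrow margin, and the difference of -0.75 was not called (SE 0.34, limma adjusted p = 0.108) unless the replicate number was a block (0.0438). YEL076C-A read 9.97, 10.36 and 10.48 with myriocin and 10.27, 10.33 and 10.42 without, with overlap and a difference of -0.07 (limma adjusted p = 0.693) that changed sign with hybridisation-control scaling (0.24). Whether the 7 probe sets differ from each other was not tested, and the copies in each signal cannot be told apart.

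Beside the ribosomal DNA the reference chromosome carries a tandem repeat of 4 units. Each unit holds, in this order and adjacent in the RefSeq table, a frame of the YLR154C-H group, a copy of the asparaginase gene ASP3 and a frame of the YLR156W group. All 3 kinds are read by shared probe sets, and they moved differently. YLR159C-A/YLR156C-A/YLR154C-H/YLR157C-C read 9.40, 8.94 and 8.95 with myriocin, against 7.11, 6.59 and 4.77 without (log2 difference 2.94, SE 0.59, limma adjusted p = 0.00722). No-myriocin replicate 3 lay far under the other No-myriocin arrays, and without it the difference was 2.25, still called (limma adjusted p = 0.00167).

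YLR157W-D/YLR161W/YLR159W/YLR156W is read by a pair of probe sets, both lower. The first read 7.64, 7.11 and 7.82 with myriocin, against 9.01, 8.95 and 9.30 without (log2 difference -1.56, SE 0.20, limma adjusted p = 0.00148). The second read 7.64, 6.83 and 7.69 with myriocin, against 8.61, 8.52 and 8.52 without (-1.17, SE 0.23, limma adjusted p = 0.00703). Neither overlapped between groups. These 3 probe sets are the ones that carry several names only in the authors' list of changed genes, so a change was a condition of their entry. No role is given for their frames in the sources used here.

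ASP3-1/ASP3-2/ASP3-3/ASP3-4, the cell wall asparaginase that is known for responding to nitrogen starvation, read 14.91, 14.84 and 14.91 with myriocin, against 14.65, 14.72 and 14.72 without. The groups were apart, but the difference of 0.19 (SE 0.06, limma adjusted p = 0.0458) lost its call when any 1 of the 6 arrays was left out (0.0634 to 0.134) and with the replicate number as a block (0.0874). The repeat lies next to the ribosomal RNA genes, whose probe sets fell as given above; their part in these 4 values was not tested. The asparaginase gene ASP1, with its own probe set, was called lower (-0.39, limma adjusted p = 0.0180), a call lost with hybridisation-control scaling (-0.08).

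The ribosomal protein pairs were the largest family, with 23 shared probe sets, and their differences were small. Their mean signals reached 15.86 log2 units, near the highest value on any array, 15.88. None was called higher and 4 were called lower, beside 25.8% and 28.5% of all non-control probe sets. Log2 differences ran from -0.50 to -0.09 with a median of -0.14. All 23 lay below 0, but 22 of the 23 lay above 0 with hybridisation-control scaling (median 0.17, none called). The groups did not overlap for 22 of the 23, beside 66.5% of all non-control probe sets. The 4 called were RPL35A/RPL35B, RPS18A/RPS18B, RPL7A/RPL7B and RPS17A/RPS17B, each at -0.21, with limma adjusted p between 0.0323 and 0.0449; all but the first are named after their values were seen. None of the 4 kept its call with the replicate number as a block (limma adjusted p = 0.0577 to 0.0713) or without any 1 array, and all 4 turned positive with hybridisation-control scaling, to between 0.10 and 0.11.

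RPL41A/RPL41B, which encode the shortest ribosomal protein, had the lowest value of the pairs, -0.50, and were not called (SE 0.23, limma adjusted p = 0.109). They read 13.92, 14.01 and 13.22 with myriocin and 14.31, 13.98 and 14.36 without, and Myriocin replicate 3 stood apart from the other arrays. At the other end were RPS30A/RPS30B and RPL42A/RPL42B, both at -0.09 (limma adjusted p = 0.287 and 0.270), which turned to 0.23 with hybridisation-control scaling. RPS30A/RPS30B read 15.70, 15.68 and 15.61 with myriocin and 15.72, 15.77 and 15.77 without, and RPL42A/RPL42B read 15.80, 15.80 and 15.72 with myriocin and 15.85, 15.88 and 15.86 without, apart by a few hundredths of a log2 unit. RPL35A/RPL35B read 15.30, 15.33 and 15.16 with myriocin, against 15.48, 15.49 and 15.46 without. The 126 probe sets of a single ribosomal protein gene had 0 calls higher and 51 lower in limma, with a median of -0.19. Of all non-control probe sets, 28.5% were called lower. With hybridisation-control scaling 2 of the 126 were called higher and 2 lower, and their median turned to 0.13.

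The other abundant duplicated genes of growth were not called. Among translation factors, EFT1/EFT2, which encode the elongation factor that moves the ribosome along, had a log2 difference of 0.00, TIF1/TIF2, the cap-complex helicase, one of -0.01, and TEF1/TEF2, which deliver aminoacyl-tRNA, one of -0.05 (limma adjusted p = 0.974, 0.866 and 0.604). SSB1/SSB2, the Hsp70 chaperones at the ribosome, stood at -0.02. HTA1/HTA2, histone H2A, stood at -0.16, and HHF1/HHF2, histone H4, at -0.17, with limma adjusted p of 0.0858 and 0.0944; both turned positive with hybridisation-control scaling, at 0.16 and 0.15, and with a floor at background both were called lower (limma adjusted p = 0.0256 and 0.0480), as they were with an intensity trend and robust variance (0.0184 and 0.0271), HTA1/HTA2 also in the equal-variance test (0.0317). TEF1/TEF2, TIF1/TIF2 and SSB1/SSB2 turned positive with hybridisation-control scaling too. Among single-gene relatives, the translation factor genes ANB1 and HEF3 were called at -2.55 and 1.54 (limma). The cytosolic Hsp70 genes SSA4, SSA3 and SSA1 were called at 2.52, 1.02 and 0.74. Of 8 single-gene histone probe sets, 2 were called higher and 2 lower, among them HTA2 at -0.83, HHO1 at 0.48 and HTZ1 at 0.28.

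Purine synthesis genes of the IMP dehydrogenase family, which commit IMP to guanine nucleotides, were called lower on both shared probe sets, of which IMD2/IMD3 changed sign with hybridisation-control scaling. IMD1/IMD2 read 7.84, 8.73 and 7.87 with myriocin, against 9.93, 9.36 and 9.06 without. The groups were apart, and the log2 difference was -1.30 (SE 0.32, limma adjusted p = 0.0149); the call was lost without Myriocin replicate 3 (-1.16, adjusted p = 0.0556 in limma) and in the equal-variance test (0.0570). IMD2/IMD3 had a log2 difference of -0.24 (SE 0.08, limma adjusted p = 0.0465), which was not called without any 1 array (0.0565 to 0.136) and turned to 0.08 under that scaling. The single-gene probe set of IMD2 was called lower at -0.55 (limma adjusted p = 0.0415) and that of IMD3 was not called (-0.11); under that scaling the first lost its call (-0.23) and the second turned to 0.20.

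PHO11/PHO12, acid phosphatases repressed by phosphate, were lower: 4.82, 4.69 and 4.49 with myriocin, against 5.59, 5.22 and 5.15 without (log2 difference -0.65, SE 0.15, limma adjusted p = 0.0110). HMLALPHA1/MATALPHA1, the activator of alpha-cell genes, had a log2 difference of -0.50 (SE 0.07, limma adjusted p = 0.00165), whereas HMLALPHA2/HMRA2/MATALPHA2, which share the alpha2 repressor sequence, stood at 0.04 and were not called. ENA1/ENA2/ENA5, sodium pumps of the plasma membrane, had a log2 difference of -0.42 (SE 0.06, limma adjusted p = 0.00275), and CUP1-1/CUP1-2, the copper metallothionein, one of -0.35 (SE 0.11, limma adjusted p = 0.0339). None of these 4 lower calls held with hybridisation-control scaling, where the differences were -0.34, -0.19, -0.10 and -0.03. That of CUP1-1/CUP1-2 was also lost without any 1 array other than Myriocin replicate 1 (limma adjusted p up to 0.108). CRS5, the other metallothionein gene, was called higher at 1.26 (SE 0.13, limma adjusted p = 0.00067), opposite to CUP1-1/CUP1-2.

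Among the remaining increases were both shared probe sets of the aryl-alcohol dehydrogenases, putative reductases of aromatic aldehydes. AAD15/AAD3 read 9.95, 10.07 and 9.78 with myriocin, against 9.32, 8.69 and 8.80 without (log2 difference 1.0, SE 0.18, limma adjusted p = 0.00505). AAD16/AAD4 had a log2 difference of 0.73 (SE 0.08, limma adjusted p = 0.000876). Of 6 single-gene AAD probe sets 4 were called higher and 0 lower in limma, up to 1.63 for AAD4, and the least was AAD6 at -0.0041 near background.

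FLO1/FLO5/FLO9, lectin-like flocculins that hold cells together, read 7.46, 6.99 and 6.87 with myriocin, against 6.25, 6.11 and 6.37 without. The Myriocin arrays were all higher, with a log2 difference of 0.86 (SE 0.17, limma adjusted p = 0.00662). FLO11, the flocculin of adhesion and filamentous growth, with its own probe set, was called higher at 7.05 (SE 0.33, limma adjusted p = 9.5e-05). The COS genes, membrane proteins that aid the sorting of cargo into the vacuole, were called higher on all 3 of their shared probe sets: COS5/COS7 at 0.53 (SE 0.08), COS1/COS4/COS6 at 0.34 (SE 0.07) and COS2/COS3 at 0.27 (SE 0.08), with limma adjusted p of 0.00295, 0.00900 and 0.0357. The call of COS2/COS3 was lost without any 1 array except No-myriocin replicate 3 (limma adjusted p up to 0.118). Single-gene COS probe sets ran from -2.80 for COS10 to 1.36 for COS111, both called, so the family did not move one way. MST27/MST28, which the list places beside COS genes and which bind the vesicle coat COPI, stood at -0.03 near background, or 0.28 with hybridisation-control scaling.

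DDI2/DDI3, cyanamide hydratases induced by DNA-alkylating agents, read 2.03, 1.87 and 2.69 with myriocin, against 1.5, 1.4 and 1.42 without. All No-myriocin arrays and 2 of 3 Myriocin arrays were at background, so the size of the increase that limma called (adjusted p = 0.0242) is not known. The Myriocin mean lay 1.09-fold above the ceiling, but it includes those 2 arrays at background and sets no lower bound. The call was lost when values were floored at the ceiling (0.21, limma adjusted p = 0.394). It was also lost without any 1 No-myriocin array (limma adjusted p = 0.0502 to 0.0714). Not called were HXT6/HXT7, high-affinity glucose transporters, at 0.13, DOG1/DOG2, which dephosphorylate 2-deoxyglucose 6-phosphate, at 0.10, TPO2/TPO3, polyamine exporters, at 0.21, and CAD1/DYN2 at -0.13. HXT6/HXT7 and DOG1/DOG2 were called higher with hybridisation-control scaling (0.44 and 0.41, limma), TPO2/TPO3 without Myriocin replicate 1 (0.43), and CAD1/DYN2 turned to 0.18. Single-gene hexose transporter probe sets were called in both directions, 4 of 15 higher and 3 lower, with HXT5 at 6.13 and HXT1 at -2.59. CAD1, a transcription factor gene, and DYN2, a dynein light chain gene, are not a family but neighbours in the RefSeq table.

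For 33 of the 82, at least 1 of the genes also has a probe set of its own, 55 in all. This sets the value for the family beside that for a single copy, though levels of different probe sets cannot be compared and the difference between the changes was not tested. Calls went opposite ways in 1 case. POR1/POR2, the mitochondrial porins, read 14.70, 14.57 and 14.77 with myriocin, against 14.06, 14.10 and 14.18 without, a log2 difference of 0.56 (SE 0.08, limma adjusted p = 0.00210). The probe set of POR2 alone read 9.996, 9.85 and 9.90 with myriocin, against 10.76, 10.86 and 10.77 without, a log2 difference of -0.88 (SE 0.07, limma adjusted p = 0.000368). Neither pair of groups overlapped. The shared one carries the _at suffix, which marks a probe set meant for a single transcript, and no single-gene probe set of POR1 was found among the named ones. Whether it reads both genes was not tested, so its value may not be that of the family.

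In other families 1 copy moved more than the shared signal. The probe set of HTA2 alone was called lower at -0.83 (SE 0.11, limma adjusted p = 0.00169), beside -0.16 for HTA1/HTA2 and -0.06 for HTA1 alone, and these last 2 values turned positive with hybridisation-control scaling. AAD4 alone stood at 1.63, beside 0.73 for AAD16/AAD4, and MPH2 alone was called lower at -1.01 (limma adjusted p = 0.0257), beside -0.32 for MPH2/MPH3, a call lost with hybridisation-control scaling (-0.69). HXT9 alone read 6.93, 6.85 and 5.89 with myriocin, against 9.08, 8.66 and 8.14 without (log2 difference -2.07, SE 0.35, limma adjusted p = 0.00393). HXT11/HXT9, by contrast, lay between 2.11 and 2.22 on all arrays, just above background, with a difference of -0.04 that turned to 0.27 with hybridisation-control scaling. So near background, the shared value cannot be read as the change of these genes.

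The reverse also occurred. FLO1 alone was at background on every array (-0.03), while FLO1/FLO5/FLO9 was called higher at 0.86, and COS6 alone stood at -0.03 (limma adjusted p = 0.829), while COS1/COS4/COS6 was called higher at 0.34; the 2 single values turned positive with hybridisation-control scaling. Over the ribosomal protein genes, 29 single-gene probe sets of 15 pairs had a median log2 difference of -0.20. Of these, 13 were called lower and 0 higher in limma, beside 4 of 23 lower for the shared ones and 28.5% lower for all non-control probe sets. Scaled to the hybridisation controls, 1 of the 13 was still called lower, and the median would lie above 0, since 0.315 is added to each value.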

How the data were processed

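The authors deposited 1 log2 signal per probe set and array, already normalised; Partek is the tool per the submitters' processing notes, with its version, the summarisation and the array build not given in the sources used here. The log2 scale was checked against the ratio column of the authors' fold change table, whose log2 the group differences match to within 8.48e-05. That table and the authors' lists of changed genes also hold their p-values, linear ratios and signed fold scores, per the file headers; only the gene names and list memberships were used. The authors' list of changed genes holds 56 of the 82 probe sets, 44 of them in a shorter list that gives each a single name and 12 in a list of unannotated genes. The platform annotation names 1 gene for 80 of the 82 and none for 2, and 173 of the 175 genes matched the RefSeq table of assembly R64, which may not hold every gene of the array.

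All 5716 non-control probe sets were fitted together with the lmFit and eBayes functions of limma 3.58.1 under R 4.3.3 (a two-sided test, no covariate and no filter on signal), with Benjamini-Hochberg adjustment over all of them; a call is an adjusted p under 0.05. The fit was tested on simulated arrays. With 3 arrays against 3, an exact permutation test cannot go below p = 0.1, so none was used; the number of arrays limits the precision (median SE of a log2 difference 0.11). Array medians lay between 11.05 and 11.08. Single-gene probe sets numbered 5546, of which 5418 were named by the platform annotation and 128 by the authors' tables; 88 were unnamed.

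The labels number the replicates alike in both groups. Arrays of equal number deviated together from their group's mean, with correlations of 0.167, 0.236 and 0.176 across probe sets. The labels do not say what the numbers mark. The main fit therefore did not pair the samples, and a fit with the replicate number as a block was run as an alternative. The block's value is printed where it changes a call.

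The members and lists were chosen with earlier results of these data known. Named with values per array are members of the ERR, HSP32, MAL, YRF1, THI5 and PAU families, the 10 highest and 10 lowest called members whose groups do not overlap, and the 2 highest and 2 lowest ribosomal pairs; other members have their difference only, or their values where the text turns on them. For most lists up to 3 single-gene relatives are named, those with the largest called change, and others, called or not, beside a member; ribosomal protein relatives are given by counts. Alternatives were quantile normalisation, equal array medians, scaling to the hybridisation controls, the dimmest 25% left out, values floored at background, an intensity trend with robust variance, an equal-variance test, the block, each array left out, stricter thresholds, repeated gene sets counted once and members of the fold change table alone. Probe sequences were not used here.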

Additional observations from a re-analysis of the deposited data

How the results depend on the processing

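Of 859 values of named probe sets over the alternatives, 64 lost a call and kept their sign, 2 lost a call and changed sign, and 15 gained a call. In all 38 changed sign, 18 of them with hybridisation-control scaling and 36 for probe sets that were not called in the main fit. Of the 20 higher calls, 11 were left when the dimmest 25% of probe sets were left out (probe sets removed count as not called) and 7 at a minimum of 2-fold, and leaving out 1 array gave 16 to 19. Of the 19 lower calls, 5 were left with hybridisation-control scaling, 7 at an adjusted p under 0.01 and 5 at a minimum of 2-fold. There were 33 lower calls with values floored at background and 35 with an intensity trend and robust variance, and leaving out 1 array gave 11 to 13. The lower calls numbered 12 without Myriocin replicate 1, 12 without Myriocin replicate 3 and 11 without No-myriocin replicate 2. With hybridisation-control scaling 5 called probe sets changed sign, and none of them was called in the new direction. RPL35A/RPL35B turned to 0.10 and IMD2/IMD3 to 0.080. RPS18A/RPS18B, RPL7A/RPL7B and RPS17A/RPS17B, which are not among the 859 values, each turned to between 0.10 and 0.11. The equal-variance test ended 7 calls (adjusted p from 0.0524 to 0.0727, over all probe sets): PAU1/PAU14, PAU18/PAU6, CUP1-1/CUP1-2, YFL065C of the YRF1 genes, DDI2/DDI3, IMD1/IMD2 and IMD2/IMD3. With the replicate number as a block there were 19 higher and 17 lower calls, and it changed no call of a named probe set other than those given above. The causes of these shifts were not tested, except that scaling adds the same 0.315 to each value and a filter or threshold removes probe sets. Signal near the ceiling of 2.07 limits DDI2/DDI3, FDH1/FDH2, MPH2/MPH3, MST27/MST28 and HXT11/HXT9.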
